A study of Homo sapiens with 4 samples.

Results

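The genes described here are the WNT ligands, the frizzled receptors, the co-receptors LRP5 and LRP6, the secreted antagonists of the DKK and SFRP families with FRZB and WIF1, and the scaffold genes AXIN1 and AXIN2. They were chosen by platform symbol, with no use of measured values, and number 43 of the 18417 genes with a probe set of 1 gene symbol. Expression was measured on 4 single-colour arrays, 1 per group. The groups were U2-OS cells with 600 μg/mL OGE for 24 h, U2-OS cells with 0 μg/mL OGE, HOS cells with 600 μg/mL OGE for 24 h, and HOS cells with 0 μg/mL OGE, the last given below as control. U2-OS and HOS are established human osteosarcoma lines, both grown in the same serum-containing medium, so each line stands for itself only. What OGE is an abbreviation of is not stated.

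WNT proteins are secreted, lipid-modified ligands that bind frizzled receptors. Together with LRP5 or LRP6, a frizzled that has bound a WNT recruits AXIN and dishevelled to the membrane, which spares beta-catenin from the complex that otherwise marks it for degradation. DKK proteins block the LRP co-receptors, whereas SFRP proteins, FRZB and WIF1 bind the ligands themselves. In bone, the branch through LRP5, LRP6 and beta-catenin promotes the formation of osteoblasts, and ligands such as WNT5A mostly signal without beta-catenin.

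All values are log2 expression values as made by RMA, and a difference of 1 is a 2-fold difference. A probe set's value depends on its probes, so levels are compared between arrays and not between genes. The arrays had medians between 3.58 and 3.62 over all probe sets. With 1 array per group, a difference was called by size when it was at least 1 and the higher value reached its array's median, and no p-value was computed. limma was fitted to all genes on the 4 arrays with line and OGE as terms, so that the 2 OGE states served as repeats of the line difference and the 2 lines as repeats of the OGE difference. The SD over 2 states or 2 lines, and the residual in limma, thus measure how far the OGE differences of the lines depart from each other. They are not a spread of replicates, and a line-specific response to OGE counts as error in them. Whether the 4 arrays came from independent cultures is not stated, so each p-value reflects only how these 4 arrays vary. In bulk RNA, a smaller share of cells that express a gene and less RNA per cell cannot be told apart.

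Markers of the osteoblast lineage were present in part. COL1A1, COL1A2, SPARC, RUNX2 and SP7 were above the array median on all 4 arrays and ALPL on 3, whereas IBSP and SPP1 were below it on all 4. COL1A2, a chain of type I collagen, had the largest difference between the lines of this list. It stood at 4.38 and 4.46 in U2-OS with and without OGE, against 7.53 and 8.78 in HOS with and without OGE. The other osteoblast markers differed in both directions. With and without OGE, U2-OS minus HOS was -1.36 and -0.55 for COL1A1, -0.89 and -1.55 for ALPL, and -0.58 and -0.3 for SP7. It was -0.4 and -0.52 for IBSP, 1.09 and 0.34 for SPP1, -0.02 and 0.65 for SPARC, and 0.07 and 0.06 for RUNX2. The 4 endothelial markers were below the median on all arrays, as were 3 of the 4 immune markers measured, PTPRC, CD3E and CD14. The other one, CD68, was above the median on all 4. Of the 5 epithelial markers, KRT8 and KRT18 were above it on all 4 arrays and CDH1 on none. The epithelial list's summed level was 9.83 and 9.72 in U2-OS with and without OGE, against 10.75 and 10.59 in HOS with and without OGE, as log2 of the sum. The osteoblast list, 8 of 9 markers measured, had summed levels of 9.06 and 10.48 in U2-OS with and without OGE, against 10.04 and 10.94 in HOS with and without OGE. Such sums add unlogged levels and so rest mostly on the probe sets with the highest values. These were KRT8 and KRT18 in the epithelial list, and COL1A1, SPARC and, in HOS, COL1A2 in the osteoblast list. The part of these lists in the differences between the lines given below was not tested.

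Most of the WNT genes differed little between the arrays. In 36 of the 43, or 83.7%, the highest and lowest of the 4 values lay less than 1 apart, compared with 78.2% of all genes. The exceptions were DKK1, WNT5A, LRP5, LRP6, FZD3, FZD4 and FZD6. DKK1, LRP5 and WNT5A had lower values in U2-OS than in HOS in both OGE states. LRP6, FZD3, FZD4 and FZD6 had their highest value in U2-OS without OGE. Of the 43 genes, 9 had both U2-OS values above both HOS values and 9 had both below, 20.9% each, compared with 19.8% and 23.0% of all genes.

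**Figure D1:**
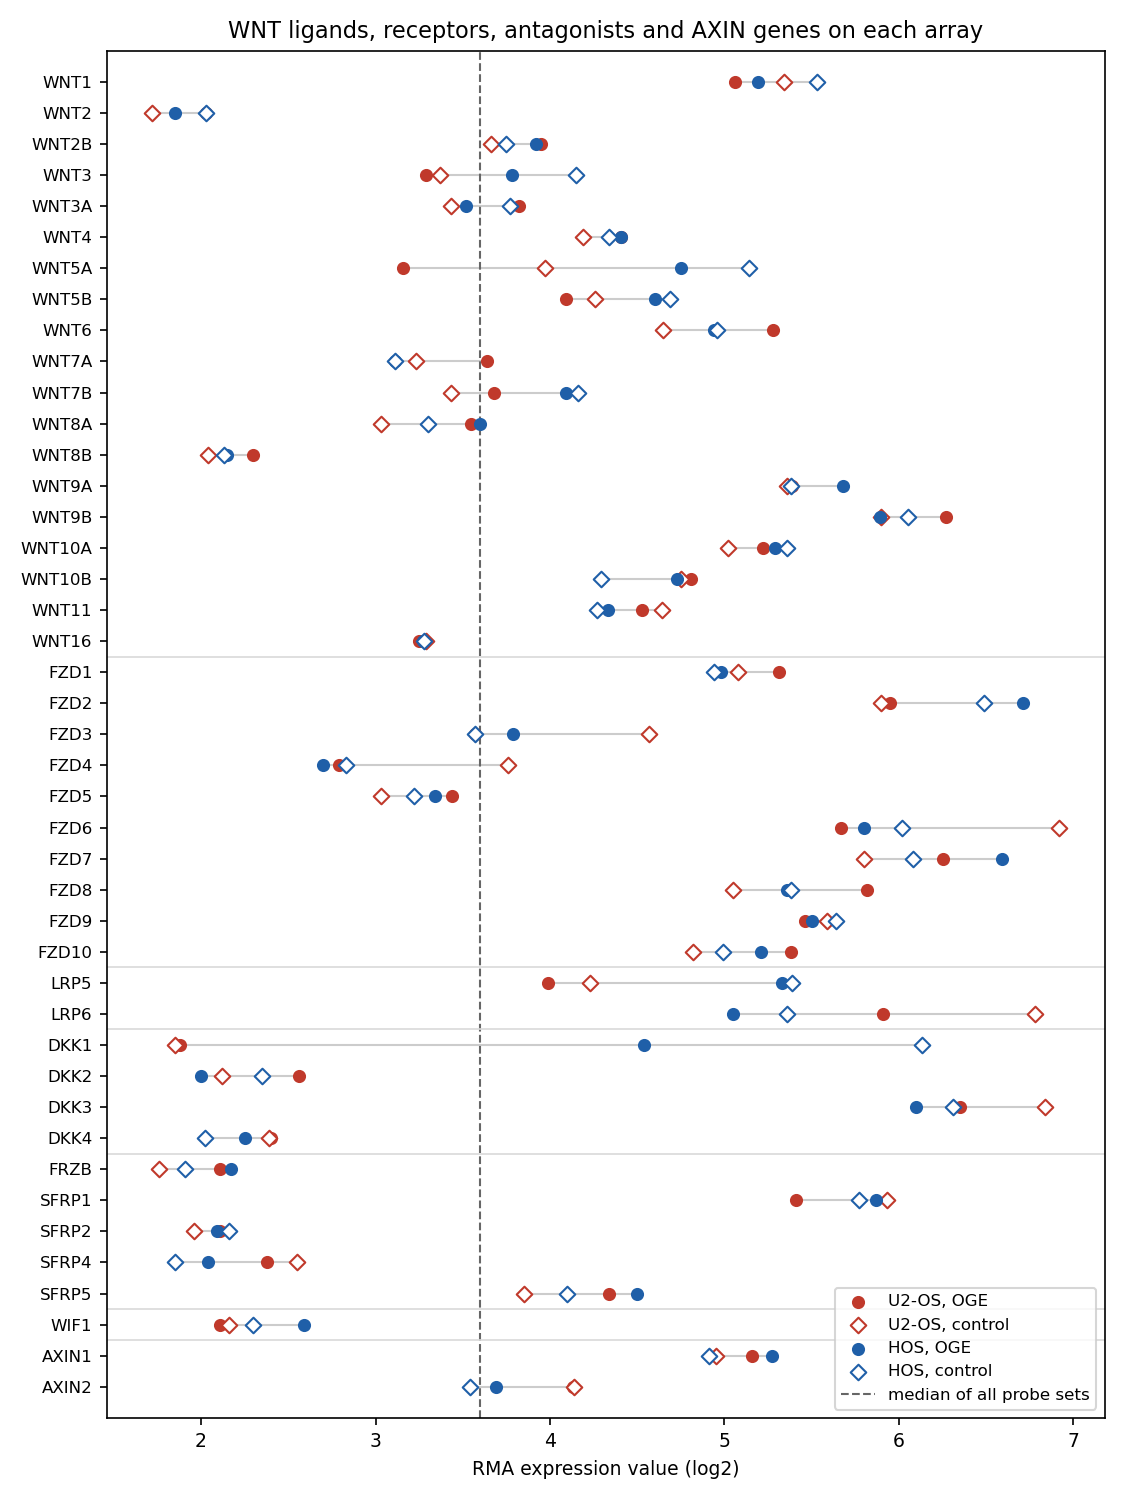
RMA expression values (log2, horizontal axis) of the 43 genes on the 4 arrays, with U2-OS in red, HOS in blue, filled circles for OGE and open diamonds for control. The dashed line is the median of all probe sets; DKK1 spans the widest range, with 1.88 and 1.85 in U2-OS with and without OGE against 4.54 and 6.13 in HOS with and without OGE.

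Between the lines without OGE, 2 of the 43 genes were higher by size in U2-OS, FZD3 and LRP6, and 3 were lower, DKK1, LRP5 and WNT5A. Over all genes, 5.20% were called higher and 3.56% lower. The 5 genes are 11.6% of the 43, compared with 8.76% of all genes called in either direction. With OGE none was higher, where 3.05% of all genes were, and DKK1, LRP5 and WNT5A were again lower, where 3.89% of all genes were. These 3 are 6.98% of the 43, compared with 6.94% of all genes in either direction. With the floor at each array's 75th percentile, none of the 3 calls with OGE was kept, and without OGE WNT5A and FZD3 lost theirs. Thus 3 of the 43 were lower in both states, where 1.91% of all genes were, and none was higher in both, where 1.80% of all genes were. In either direction, 3.71% of all genes were called in both states. The median difference of the 43 was -0.15 without OGE and 0.00 with it, and over all genes it was -0.03 and -0.01. limma called 1 of the 43, DKK1, for the line difference at an adjusted p under 0.05, as lower. It called 1.92% of all genes, 0.885% as higher and 1.04% as lower. At an unadjusted p under 0.05 it called 3 of the 43 as higher and 7 as lower, compared with 10.3% and 10.4% of all genes and 20.7% in either direction.

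**Figure D2:**
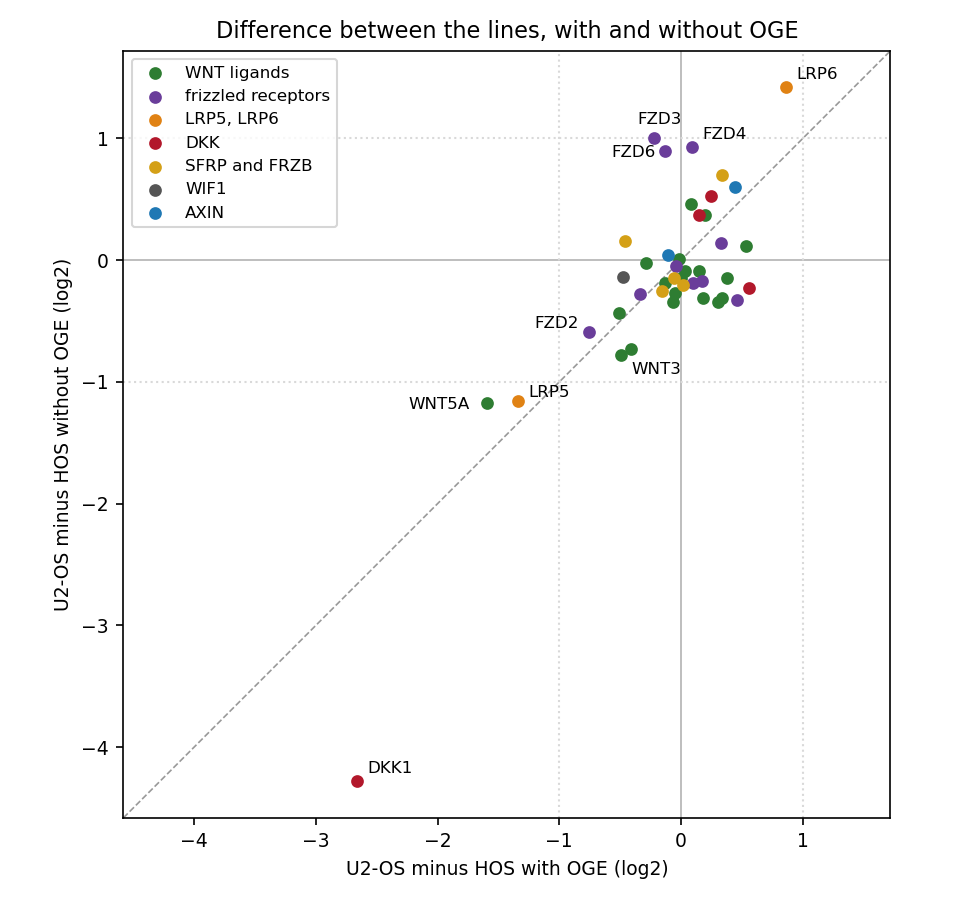
Difference between the lines (log2, U2-OS minus HOS) of each of the 43 genes with OGE (horizontal axis) and without it (vertical axis), coloured by family; the dashed line marks equal differences and dotted lines mark 1 and -1. DKK1 lies at -2.66 and -4.28, WNT5A and LRP5 lie below -1 in both states, and FZD3, FZD4 and FZD6 lie near 1 without OGE and near 0 with it.

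The promoter windows of DKK1, WNT5A and LRP5, the 3 genes that were lower in U2-OS in both states, and of FZD4, whose pattern is given below, are shown as background to their different levels. Each window runs from 250 bases before to 50 bases after the start of the gene in RefSeq, on GRCh38.p14, and is written 5′ to 3′ on the strand of the gene. Capitals mark matches, on either strand, to CTTTGA (the core bound by TCF and LEF factors), to TGANTCA (bound by AP-1), to TATAAA (the box that many tightly regulated promoters carry) or to GGGCGG (bound by SP factors). Matches to different motifs may overlap each other. WNT5A has 2 annotated starts.
DKK1 promoter, chr10:52314031-52314330, plus strand: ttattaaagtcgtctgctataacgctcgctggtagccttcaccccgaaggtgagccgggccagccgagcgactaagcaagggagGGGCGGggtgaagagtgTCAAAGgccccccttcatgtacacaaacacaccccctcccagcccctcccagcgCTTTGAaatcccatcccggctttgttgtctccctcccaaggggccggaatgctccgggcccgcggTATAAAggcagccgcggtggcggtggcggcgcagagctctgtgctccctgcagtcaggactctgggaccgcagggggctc
WNT5A promoter 1, chr3:55487257-55487556, minus strand: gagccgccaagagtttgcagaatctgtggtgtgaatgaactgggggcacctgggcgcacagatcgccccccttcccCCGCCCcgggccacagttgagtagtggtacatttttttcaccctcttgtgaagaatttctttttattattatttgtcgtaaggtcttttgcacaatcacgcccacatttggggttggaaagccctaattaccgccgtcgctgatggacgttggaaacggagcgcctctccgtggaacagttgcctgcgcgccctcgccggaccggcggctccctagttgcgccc
WNT5A promoter 2, chr3:55481349-55481648, minus strand: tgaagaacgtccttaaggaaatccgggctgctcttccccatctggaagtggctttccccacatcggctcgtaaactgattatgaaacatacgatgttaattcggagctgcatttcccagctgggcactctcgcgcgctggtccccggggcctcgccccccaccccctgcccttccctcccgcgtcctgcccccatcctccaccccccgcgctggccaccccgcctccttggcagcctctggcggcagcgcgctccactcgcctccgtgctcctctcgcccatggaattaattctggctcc
LRP5 promoter, chr11:68312341-68312640, plus strand: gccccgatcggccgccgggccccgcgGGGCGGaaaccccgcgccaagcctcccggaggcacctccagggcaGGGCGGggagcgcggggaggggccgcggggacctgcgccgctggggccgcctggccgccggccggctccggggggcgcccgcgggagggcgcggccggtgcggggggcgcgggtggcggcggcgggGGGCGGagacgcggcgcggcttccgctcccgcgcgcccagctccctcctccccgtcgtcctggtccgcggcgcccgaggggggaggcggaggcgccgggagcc
FZD4 promoter, chr11:86955346-86955645, minus strand: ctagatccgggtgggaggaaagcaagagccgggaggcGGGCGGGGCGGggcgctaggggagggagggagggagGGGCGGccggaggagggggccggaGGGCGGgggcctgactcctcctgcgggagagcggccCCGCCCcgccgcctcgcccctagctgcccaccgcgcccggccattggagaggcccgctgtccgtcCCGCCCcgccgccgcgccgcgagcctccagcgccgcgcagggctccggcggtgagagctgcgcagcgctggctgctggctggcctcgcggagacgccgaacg

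The DKK1 window holds 2 matches to CTTTGA, beginning 149 and 95 bases before the start, and a TATAAA beginning 30 bases before it. CTTTGA is present in 12.92% of the 35116 RefSeq promoter windows, TATAAA in 11.53%, TGANTCA in 7.71% and GGGCGG in 44.95%. The LRP5 window holds 3 matches to GGGCGG and the FZD4 window 6, and neither has any of the other letters searched. The first WNT5A window holds 1 GGGCGG and the second none of the 4 motifs. In GC content, the LRP5 window had 86.7%, the FZD4 window 79.7%, the DKK1 window 63.7% and the WNT5A windows 56.3% and 63.7%, and the median of all windows was 58.7%. A match describes the letters only and does not show that a factor binds.

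Of the 19 WNT ligands, WNT5A, which in many cells acts without beta-catenin, was called between the lines. It stood at 3.16 and 3.97 in U2-OS with and without OGE, against 4.75 and 5.14 in HOS with and without OGE. Both U2-OS values lay below both HOS values. The difference was -1.59 with OGE and -1.17 without it, with a mean of -1.38 ± 0.30 (SD, n = 2 states). The adjusted p in limma was 0.0547, just above the threshold, and lay between 0.00643 and 0.159 over its alternatives, which are given in the closing section.

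WNT5B, the closest relative of WNT5A, ran the same way with a smaller difference. Its values were 4.09 and 4.26 in U2-OS with and without OGE, against 4.60 and 4.69 in HOS with and without OGE, a mean difference of -0.47 ± 0.06 (SD, n = 2 states). WNT3, a ligand that signals through beta-catenin, stood at 3.29 and 3.37 in U2-OS with and without OGE and at 3.78 and 4.15 in HOS with and without OGE. WNT7B, a ligand that promotes bone formation in mice, had 3.68 and 3.43 in U2-OS with and without OGE, against 4.09 and 4.16 in HOS with and without OGE. Of the 19 ligands, 5 had both U2-OS values below both HOS values, 26.3% compared with 23.0% of all genes. WNT5B, WNT3 and WNT7B were among these 5. Their unadjusted p-values in limma were 0.0436 for WNT5B, 0.0203 for WNT3 and 0.0308 for WNT7B, and none passed after adjustment over all genes, the smallest adjusted p in limma being 0.156 and the largest 0.227.

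The other ligands showed no difference of 1 or more between any compared arrays. WNT6 was highest in U2-OS with OGE, at 5.28, against 4.65 in U2-OS without it, and stood at 4.94 and 4.96 in HOS with and without OGE. WNT9B, which induces kidney tubules in mice, had 6.27 and 5.90 in U2-OS with and without OGE, against 5.89 and 6.05 in HOS with and without OGE. WNT10B, which favours bone over fat formation in mice, had 4.81 and 4.75 in U2-OS with and without OGE, against 4.73 and 4.29 in HOS with and without OGE. The lowest WNT10B value was that of HOS control, and the highest WNT9B value that of U2-OS with OGE.

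WNT1, the founding member of the family, had 5.06 and 5.34 in U2-OS with and without OGE, against 5.19 and 5.53 in HOS with and without OGE, lower with OGE by less than 0.5 in both lines. WNT10A, which is needed for teeth and hair, had 5.22 and 5.02 in U2-OS with and without OGE, against 5.29 and 5.36 in HOS with and without OGE. WNT9A, a ligand of forming joints, had 5.39 and 5.36 in U2-OS with and without OGE, against 5.68 and 5.38 in HOS with and without OGE. WNT11, another ligand that mostly acts without beta-catenin, did not share the direction of WNT5A: it had 4.53 and 4.64 in U2-OS with and without OGE, against 4.33 and 4.27 in HOS with and without OGE.

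Of WNT4, WNT2B, WNT3A and WNT7A, each reached the array median on at least 1 array. WNT4, a ligand of kidney and ovary development, had 4.41 and 4.19 in U2-OS with and without OGE, against 4.41 and 4.34 in HOS with and without OGE. WNT2B had 3.95 and 3.66 in U2-OS with and without OGE, against 3.92 and 3.75 in HOS with and without OGE, slightly higher with OGE in both lines. WNT3A, a ligand widely used to activate beta-catenin in culture, had 3.82 and 3.43 in U2-OS with and without OGE, against 3.52 and 3.77 in HOS with and without OGE. WNT7A, which patterns the limb in mice, had 3.64 and 3.23 in U2-OS with and without OGE, against 3.11 in both HOS arrays. The lines overlapped in WNT4, WNT2B and WNT3A, and in WNT7A both U2-OS values lay above both HOS values.

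WNT2, WNT8A, WNT8B and WNT16 were below the median on all 4 arrays, as were FZD5, DKK2, DKK4, SFRP2, SFRP4, FRZB and WIF1. The values of these 11 genes lay between 1.72 and 3.60, and their differences between -0.48 and 0.70. Of all 19 ligands, 9 had a negative and 9 a positive difference between the lines with OGE, and 15 a negative one without OGE. These are 47.4% negative with OGE and 78.9% without it, compared with 50.4% and 52.4% of all genes.

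Among the receptors, the co-receptors LRP5 and LRP6 had differences of opposite sign between the lines. LRP5 stood at 3.99 and 4.23 in U2-OS with and without OGE, against 5.33 and 5.39 in HOS with and without OGE. LRP6 stood at 5.91 and 6.78 in U2-OS with and without OGE, against 5.05 and 5.36 in HOS with and without OGE. For both genes the values of the lines did not overlap. The mean difference was -1.25 ± 0.13 for LRP5 and 1.14 ± 0.40 for LRP6 (SD, n = 2 states). The adjusted p in limma was 0.0533 for LRP5, between 0.00756 and 0.0761 over the alternatives, and 0.0801 for LRP6, between 0.0136 and 0.221 over them. LRP6 was called by size without OGE, with a difference of 1.42, and not with OGE, with 0.86.

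The frizzled receptors included 3 whose highest value was that of U2-OS control by more than 0.5. FZD6, a frizzled that takes part in planar cell polarity, stood at 5.67 and 6.92 in U2-OS with and without OGE, against 5.80 and 6.02 in HOS with and without OGE. FZD3, its closest relative, stood at 3.57 and 4.57 in U2-OS with and without OGE, against 3.79 and 3.57 in HOS with and without OGE. In both genes U2-OS control lay above the other 3 arrays, which were close to each other.

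FZD4, a receptor for norrin as well as WNTs, had the same pattern at 2.79 and 3.76 in U2-OS with and without OGE, against 2.70 and 2.83 in HOS with and without OGE. U2-OS control was the one array on which FZD4 reached the median. Without OGE the difference between the lines was 0.90 for FZD6, 1.00 for FZD3 and 0.93 for FZD4, and with OGE it was -0.13, -0.22 and 0.09. Of these, FZD3 without OGE was the one called by size, at the threshold itself. The adjusted p in limma for the line difference lay between 0.368 and 0.605 for these 3 genes. In that fit the gap between their line differences with and without OGE counts as error.

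FZD2 ran the other way, with 5.95 and 5.90 in U2-OS with and without OGE, against 6.71 and 6.49 in HOS with and without OGE. Both U2-OS values lay below both HOS values, with a mean difference of -0.67 ± 0.12 (SD, n = 2 states) and an adjusted p of 0.129 in limma. FZD7, a close relative of FZD2, had 6.25 and 5.80 in U2-OS with and without OGE, against 6.59 and 6.08 in HOS with and without OGE. Its values were higher with OGE in both lines.

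FZD8, a close relative of FZD5, was highest in U2-OS with OGE, at 5.82, against 5.05 in U2-OS without it, and stood at 5.36 and 5.38 in HOS with and without OGE. FZD10 had 5.38 and 4.82 in U2-OS with and without OGE, against 5.21 and 4.99 in HOS with and without OGE. FZD1, of the group of FZD2 and FZD7, had 5.31 and 5.08 in U2-OS with and without OGE, against 4.98 and 4.94 in HOS with and without OGE. In FZD8, FZD10 and FZD1 the highest value was that of U2-OS with OGE. FZD9, which is needed for full bone mass in mice, varied least of the frizzleds, with 5.46 and 5.59 in U2-OS with and without OGE, against 5.50 and 5.64 in HOS with and without OGE.

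DKK1, which binds LRP5 and LRP6 and is itself a target of beta-catenin, had the largest difference of the 43 genes. It stood at 1.88 and 1.85 in U2-OS with and without OGE, against 4.54 and 6.13 in HOS with and without OGE. Both U2-OS values were below the array median and both HOS values above it. With no detection calls in the deposited table, whether the U2-OS values measure a level or only bound it is unknown, and the differences may be lower bounds in size. The difference between the lines was -2.66 with OGE and -4.28 without it, a mean of -3.47 ± 1.15 (SD, n = 2 states). With the U2-OS values raised to their array medians, a setting added after seeing the data, these would be -0.94 and -2.55. In limma its standard error was 0.42 and its adjusted p 0.0434, between 0.00111 and 0.0704 over the alternatives, the highest without OGE as a term.

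Unlike DKK1, DKK3, a divergent member of its family, was similar in both lines. DKK3 had 6.35 and 6.84 in U2-OS with and without OGE, against 6.10 and 6.31 in HOS with and without OGE. A further DKK3 probe set, not used, reached at most 2.19 on the 4 arrays. SFRP1, which binds WNTs and frizzleds, had 5.41 and 5.93 in U2-OS with and without OGE, against 5.87 and 5.77 in HOS with and without OGE. SFRP5, of the same subgroup as SFRP1, had 4.34 and 3.85 in U2-OS with and without OGE, against 4.50 and 4.10 in HOS with and without OGE. The values of the lines overlapped for SFRP1 and SFRP5, and for DKK3 they lay close together without overlapping.

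AXIN2, a negative regulator that beta-catenin induces in many tissues, had both U2-OS values above both HOS values. It stood at 4.13 and 4.14 in U2-OS with and without OGE, against 3.69 and 3.54 in HOS with and without OGE, a mean difference of 0.52 ± 0.11 (SD, n = 2 states). Its unadjusted p in limma was 0.0335 and its adjusted p 0.200. AXIN1, the constitutive scaffold, had 5.16 and 4.95 in U2-OS with and without OGE, against 5.27 and 4.91 in HOS with and without OGE, and its values overlapped between the lines.

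With OGE, 2 of the 43 genes were lower by size in U2-OS, FZD6 and FZD3, and none was higher. Over all genes, 1.84% were called higher and 4.92% lower. The 2 genes are 4.65% of the 43, compared with 6.76% of all genes in either direction. With the floor at the 75th percentile, FZD6 kept the call and FZD3 did not. In HOS 1 of the 43 was lower, DKK1, and none was higher, where 1.34% of all genes were lower and 1.05% higher. It is 2.33% of the 43, compared with 2.39% of all genes in either direction. No gene of the 43 was called in both lines, and 1.09% of all genes were. The median difference of the 43 was 0.06 in U2-OS and 0.00 in HOS, and over all genes it was 0.03 and 0.02. Across the lines limma called 0 of the 43 and 0.00% of all genes for OGE. At an unadjusted p under 0.05 it called FZD7 as higher and WNT5A and LRP6 as lower, 3 of the 43. Over all genes it called 5.67% as higher and 8.52% as lower, 14.2% in all.

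**Figure D3:**
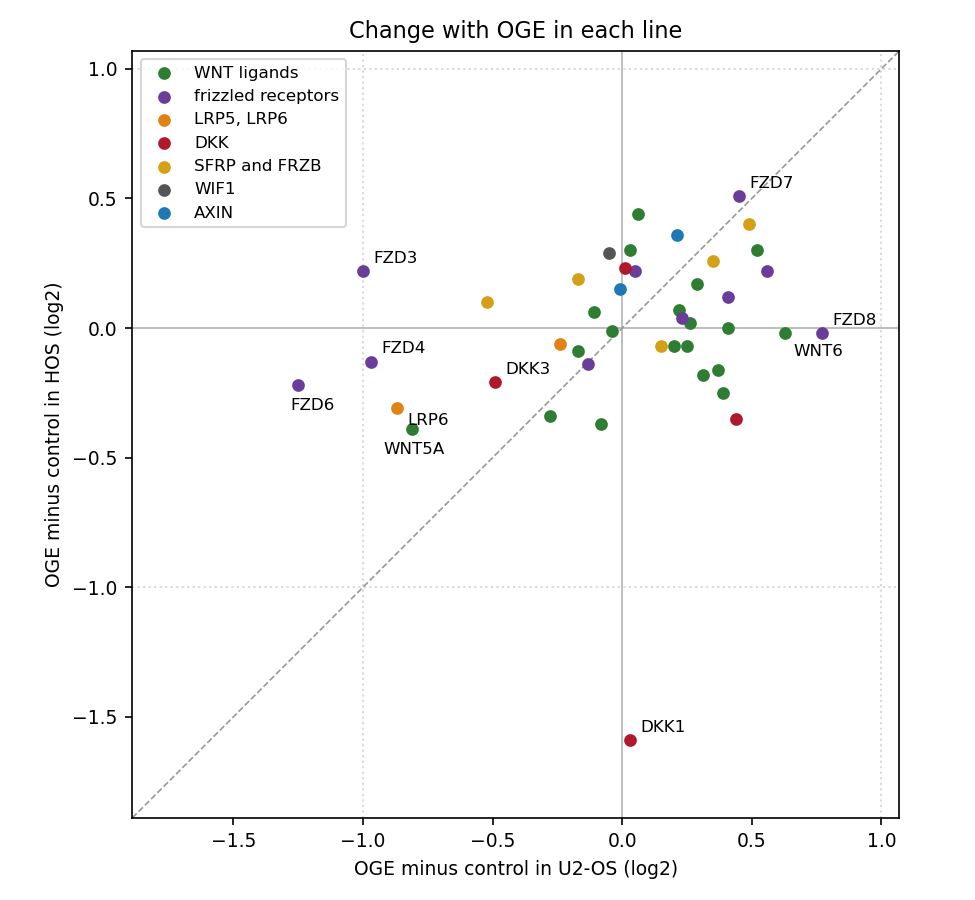
Difference with OGE (log2, OGE minus control) of each of the 43 genes in U2-OS (horizontal axis) and in HOS (vertical axis), coloured by family; the dashed line marks equal differences and dotted lines mark 1 and -1. FZD6, FZD3, FZD4, LRP6 and WNT5A lie between -1.25 and -0.81 in U2-OS and between -0.39 and 0.22 in HOS, and DKK1 lies at 0.03 in U2-OS and -1.59 in HOS.

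The difference with OGE in U2-OS was -1.25 for FZD6, -1.0 for FZD3, -0.97 for FZD4, -0.87 for LRP6 and -0.81 for WNT5A. In HOS the same genes differed by -0.22, 0.22, -0.13, -0.31 and -0.39. FZD4 was not called at -0.97 and reached -1.02 after quantile normalization and -1.05 after cyclic loess. On the other side, FZD8 differed by 0.77 in U2-OS and -0.02 in HOS, WNT6 by 0.63 and -0.02, and FZD10 by 0.56 and 0.22. DKK1 differed by 0.03 in U2-OS, where its level was below the median in both states, and by -1.59 in HOS. The difference between the lines' responses could not be tested, since 4 arrays leave no residual for it. FZD7 differed by 0.45 in U2-OS and 0.51 in HOS, a mean of 0.48 ± 0.04 (SD, n = 2 lines), with an adjusted p of 0.334 in limma. The osteoblast markers differed with OGE in both directions. COL1A1 and SPARC differed by -1.75 and -1.40 in U2-OS and by -0.94 and -0.73 in HOS. COL1A2 differed by -0.08 in U2-OS and -1.25 in HOS, RUNX2 by -0.59 and -0.6, and IBSP by -0.05 and -0.17. SPP1 differed by 0.74 in U2-OS and -0.01 in HOS, ALPL by 0.66 and 0.0, and SP7 by 0.1 and 0.38. CD68 differed by 1.35 in U2-OS and 1.05 in HOS, with PTPRC at 1.48 or less on all 4 arrays. The part of these markers in the OGE differences was not tested. The OGE comparison and the line comparison share arrays, so the high value of U2-OS control enters both for FZD3, FZD4, FZD6 and LRP6.

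The 3 frizzled genes with the most negative OGE differences in U2-OS also had the longest annotated spans of the 10. FZD4 spans 9.72 kb, FZD6 34.37 kb and FZD3 80.05 kb in RefSeq, with OGE differences of -0.97, -1.25 and -1.0 in U2-OS. The other 7 frizzled genes, whose coding sequence lies in a single exon, span 2.34 to 7.31 kb, with differences between -0.13 and 0.77 in U2-OS. In HOS the first 3 differed by -0.13, -0.22 and 0.22 and the other 7 by -0.14 to 0.51. Across 18389 genes with a known span, the median OGE difference was 0.16 in U2-OS and 0.07 in HOS for the 20% of genes with the shortest spans, and -0.10 in U2-OS and -0.06 in HOS for the 20% with the longest. In the groups of similar span to FZD4, FZD6 and FZD3, the U2-OS medians were 0.11, 0.02 and -0.06. Among genes that reached the array median on at least 1 array, the U2-OS median was 0.21 for the shortest spans. It was -0.27 for the longest. Other long genes of the 43 differed in both directions in U2-OS. Positive differences included DKK2, below the median on all arrays, with 114.51 kb and 0.44, and WNT7A with 63.81 kb and 0.41. WNT3A had 54.27 kb and 0.39, and WNT9B 53.55 kb and 0.37. Negative differences included WNT5A with 39.55 kb and -0.81, SFRP1 with 47.51 kb and -0.52, and DKK3 with 46.71 kb and -0.49. WNT3 had 56.19 kb and -0.08, and WIF1 70.68 kb and -0.05. LRP6 and LRP5 span 151.02 and 150.86 kb and differed by -0.87 and -0.24 with OGE in U2-OS. This grouping was noticed after the values were seen, and the part of span in the frizzled differences was not tested.

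**Figure D4:**
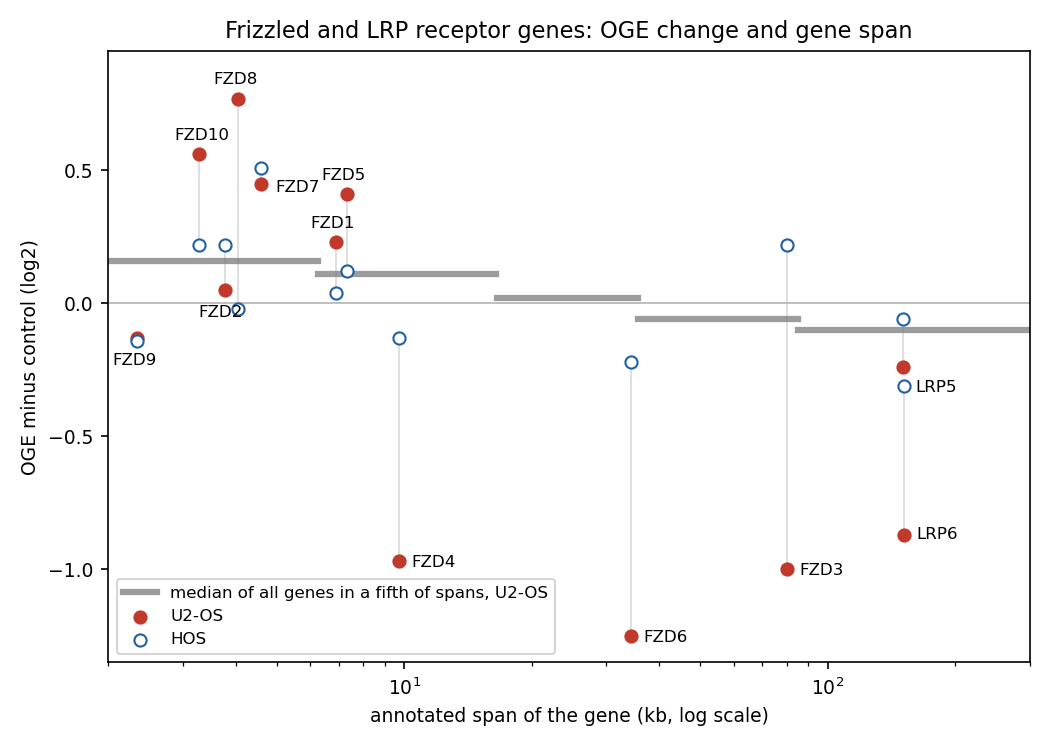
Difference with OGE (log2, OGE minus control, vertical axis) of the 10 frizzled genes and LRP5 and LRP6 in U2-OS (filled red) and HOS (open blue) against the annotated span of the gene (kb, log scale). Grey bars are the medians in U2-OS of all genes, in 5 groups of equal number by span; FZD4, FZD6, FZD3 and LRP6 lie between -1.25 and -0.87 in U2-OS.

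Other genes of the pathway were taken in 7 lists, which hold 68 measured genes outside the 43. On at least 1 array 59 of the 68 reached the median, as a call requires, where 12029 of the 18417 genes did. Of these 68, 8 were higher and 3 lower by size in U2-OS without OGE, 16.2% compared with 8.76% of all genes, and 4 were higher and 2 lower with OGE, 8.82% compared with 6.94%. For OGE against control, 2 were higher and 7 lower in U2-OS, 13.2% compared with 6.76% of all genes, and 1 was higher and 1 lower in HOS, 2.94% compared with 2.39%. Over both OGE states limma called LEF1 as higher and TLE4 as lower, 1 of the 68 in each direction, where 0.885% and 1.04% of all genes were. For OGE it called 0 of the 68 and 0.00% of all genes. At an unadjusted p under 0.05 limma gave 11 higher and 8 lower for the line, 27.9% compared with 20.7% of all genes. For OGE it gave 2 higher and 9 lower, 16.2% compared with 14.2%.

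**Figure D5:**
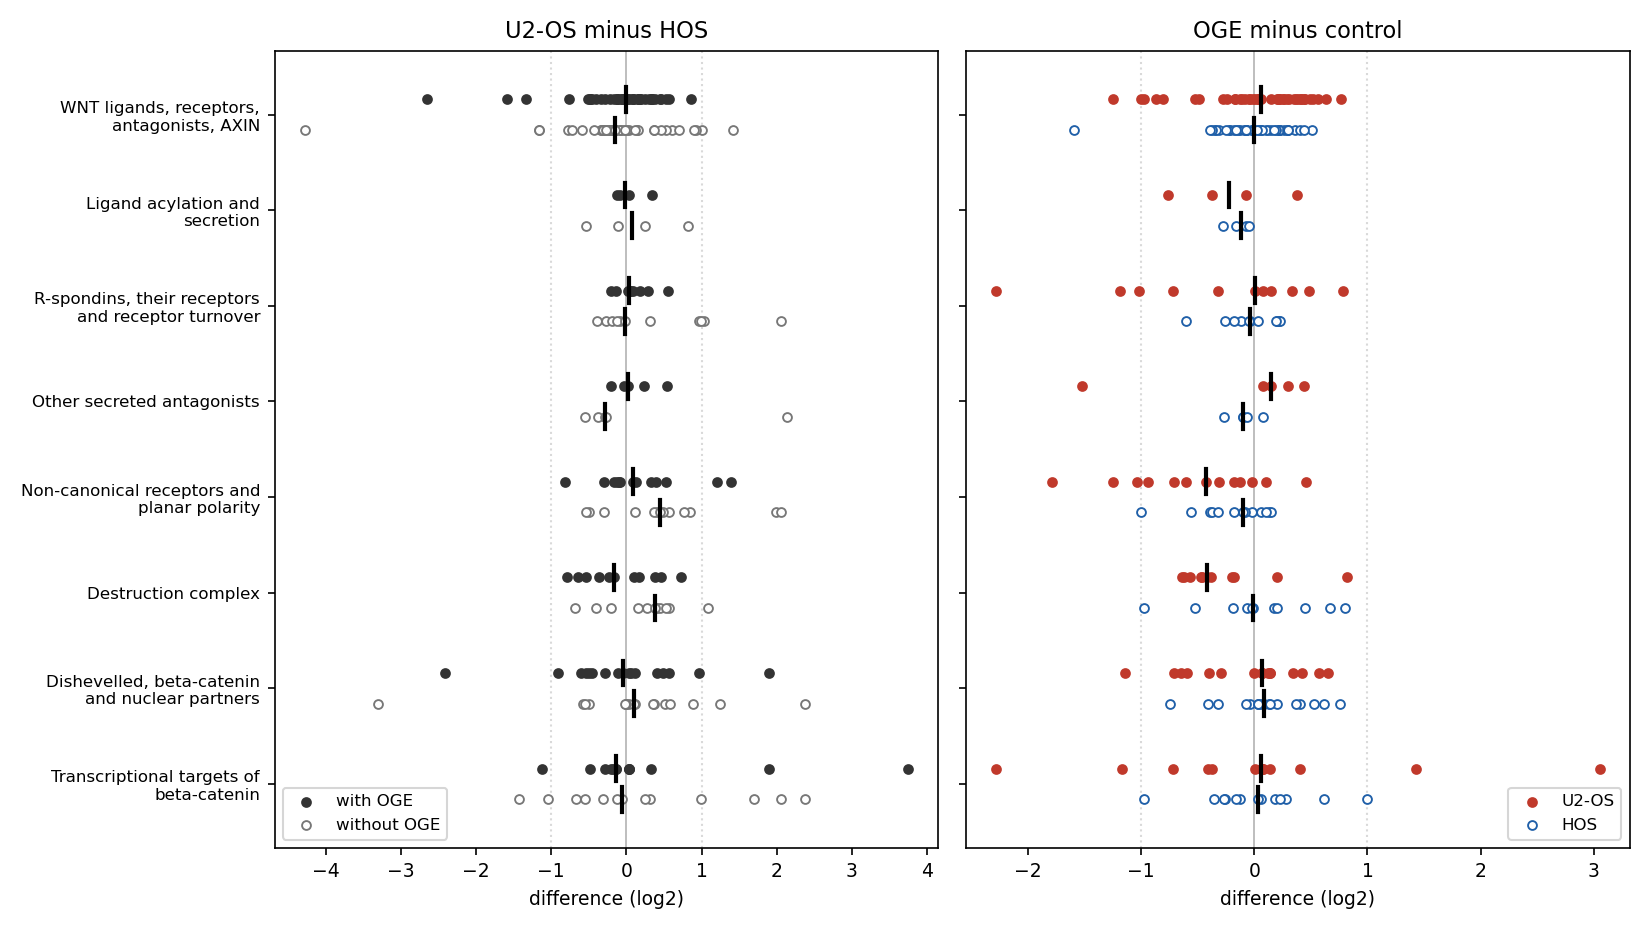
Differences (log2) of the 43 genes and of 7 pathway lists, 1 point per gene and a black bar at the median: on the left U2-OS minus HOS with OGE (filled) and without it (open), on the right OGE minus control in U2-OS (filled red) and in HOS (open blue). MYC lies at 3.05 with OGE in U2-OS, and TLE4 and LEF1 lie at -3.30 and 2.38 between the lines without OGE.

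Among the nuclear partners of beta-catenin, LEF1, a DNA-binding factor that recruits it, was higher in U2-OS, and TLE4, a co-repressor of the TCF and LEF factors, was lower. LEF1 stood at 5.39 and 5.25 in U2-OS with and without OGE, against 3.49 and 2.87 in HOS with and without OGE. TLE4 stood at 2.21 and 2.07 in U2-OS with and without OGE, against 4.63 and 5.37 in HOS with and without OGE. For both the lines did not overlap, and limma gave mean differences of 2.14 with a standard error of 0.20 and an adjusted p of 0.0399, and of -2.86 with a standard error of 0.27 and an adjusted p of 0.0391. The U2-OS values of TLE4 and the HOS values of LEF1 were below their array medians. Whether they measure a level or only bound it is unknown, and the differences may be lower bounds in size. Over the alternatives the adjusted p in limma lay between 0.00111 and 0.0512 for LEF1, the highest without OGE as a term. For TLE4 it lay between 0.000688 and 0.0373, without the fit restricted to genes whose mean reached the median, which left TLE4 out. PYGO2, which links beta-catenin to chromatin through BCL9, differed by 1.24 between the lines without OGE and 0.06 with it. The gene for beta-catenin, CTNNB1, stood at 8.38 and 9.52 in U2-OS with and without OGE, against 8.84 and 9.16 in HOS with and without OGE, a difference with OGE of -1.14 in U2-OS and -0.32 in HOS. After quantile normalization the U2-OS difference of CTNNB1 was -0.99, just under the threshold. Of the 17 measured genes of this list, these were the 4 called by size in any comparison. Between the lines 17.6% of the list was called without OGE and 11.8% with it, compared with 8.76% and 6.94% of all genes. For OGE, 5.88% was called in U2-OS and 0.00% in HOS, compared with 6.76% and 2.39% of all genes.

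Of the 11 genes for R-spondins, their receptors and receptor turnover, the R-spondin receptors LGR4 and LGR5 were called. They are 18.2% of the list, higher without OGE in U2-OS than in HOS and lower with OGE in U2-OS, where 8.76% and 6.76% of all genes were called. LGR5, also a target of beta-catenin, stood at 2.09 and 4.37 in U2-OS with and without OGE, against 2.06 and 2.32 in HOS with and without OGE. LGR4 stood at 4.34 and 5.53 in U2-OS with and without OGE, against 4.32 and 4.50 in HOS with and without OGE. Both were highest in U2-OS control, with differences with OGE of -2.28 and -1.19 in U2-OS and of -0.26 and -0.18 in HOS. The other receptor of that kind, LGR6, stood at 3.22 and 2.74 in U2-OS with and without OGE, against 3.13 and 2.93 in HOS with and without OGE, so that U2-OS control was its lowest array. The other 9 genes of that list, LGR6 and the ligases RNF43 and ZNRF3 that remove frizzleds among them, were not called in any comparison. RNF43 had a difference of 0.99 between the lines without OGE.

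Of the 13 genes for receptors and polarity factors that work without beta-catenin, PRICKLE1, PRICKLE2 and VANGL1 were called in at least 1 comparison. Between the lines 15.4% of the list was called with OGE and 15.4% without it, compared with 6.94% and 8.76% of all genes. For OGE, 23.1% was called in U2-OS and 7.69% in HOS, compared with 6.76% and 2.39% of all genes. PRICKLE1, a cytoplasmic polarity protein, stood at 5.82 and 7.61 in U2-OS with and without OGE, against 4.62 and 5.62 in HOS with and without OGE. PRICKLE2 stood at 4.10 and 5.14 in U2-OS with and without OGE, against 2.71 and 3.08 in HOS with and without OGE. Both were higher by size in U2-OS in both states, with adjusted p of 0.0632 for PRICKLE1 and 0.0503 for PRICKLE2 in limma, and ranges of 0.0054 to 0.359 and 0.00342 to 0.142 over the alternatives. With OGE, PRICKLE1 differed by -1.79 in U2-OS and -1.0 in HOS, and PRICKLE2 by -1.04 and -0.37. PRICKLE1 and MYC were the 2 of the 68 genes called in the same direction in both lines. VANGL1, a membrane protein of the same system, differed by -1.25 with OGE in U2-OS and by -0.56 in HOS. The list's median difference with OGE was -0.43 in U2-OS and -0.10 in HOS, beside 0.03 and 0.02 over all genes. The 11 measured genes of the destruction complex included 1 called by size, the kinase GSK3B, with a difference of 1.09 between the lines without OGE and 0.46 with it. That call without OGE is 9.09% of the list, compared with 8.76% of all genes. Of the list for acylation and secretion of ligands, WLS, NOTUM, TRABD2A and TRABD2B were measured and PORCN was not. None of these 4 was called. None of the 5 genes of another list, SOST, SOSTDC1, CER1, APCDD1 and the norrin gene NDP, was called either.

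Transcriptional targets of beta-catenin were called in both directions. All 13 measured targets reached the array median on at least 1 array, as a call requires, where 12029 of the 18417 genes did. Of 13 measured targets, which include LEF1 and LGR5, 2 were higher by size with OGE in U2-OS, MYC and CD44, and 2 were lower, CCND1 and LGR5. These are 30.8% of the targets, compared with 6.76% of all genes, and 1, MYC, was called in HOS, 7.69% compared with 2.39%. Between the lines, 3 were higher and 2 lower without OGE, 38.5% compared with 8.76%, and 2 were higher and 1 lower with OGE, 23.1% compared with 6.94%. MYC, which many other pathways also control, stood at 8.88 and 5.83 in U2-OS with and without OGE, against 5.13 and 4.13 in HOS with and without OGE. The MYC difference with OGE was 3.05 in U2-OS and 1.00 in HOS, the second 0.96 after quantile normalization or cyclic loess and then below the threshold. Between the lines, MYC differed by 3.75 with OGE and 1.70 without it, and CD44 by -0.18 with OGE and -1.43 without it. CD44 differed with OGE by 1.43 in U2-OS and 0.18 in HOS. CCND1, the gene for cyclin D1, stood at 6.08 and 7.25 in U2-OS with and without OGE, against 7.20 and 7.56 in HOS with and without OGE. Its difference with OGE was -1.17 in U2-OS and -0.36 in HOS, and between the lines it was -1.12 with OGE and -0.31 without it.

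TNFRSF19, a receptor of the TNF family, differed by -0.48 between the lines with OGE and by -1.04 without it, the second -0.996 and not called after cyclic loess. Its difference with OGE was -0.41 in U2-OS and -0.97 in HOS, the second -1.01 and called after quantile normalization. NKD1, a feedback inhibitor of dishevelled, had 4.92 and 4.84 in U2-OS with and without OGE, against 4.59 and 4.53 in HOS with and without OGE. NKD2 had 3.99 and 3.59 in U2-OS with and without OGE, against 4.13 and 4.26 in HOS with and without OGE. SP5 had 4.52 and 4.46 in U2-OS with and without OGE, against 4.80 and 4.52 in HOS with and without OGE. For AXIN2, NKD1, NKD2 and SP5, which respond to beta-catenin in many tissues, no difference with OGE exceeded 0.5 in size in either line. Other targets of the list were not all alike. LGR5 differed with OGE by -2.28 in U2-OS and -0.26 in HOS, and RNF43 by -0.72 and 0.23. NOTUM differed by -0.37 and -0.16, ZNRF3 by 0.01 and 0.03, and APCDD1 by 0.08 and -0.27. The targets' median difference with OGE was 0.06 in U2-OS and 0.03 in HOS.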

How the data were processed

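Gene expression was measured on 4 arrays, 1 per combination of line and OGE. The deposited table holds log2 expression values, and the submitters' processing notes name RMA (Robust Multi-array Average) with no version. Their log base was inferred from their span of 0.16 to 13.41. Of 33297 probe sets, the platform annotation gives 1 symbol to 19460, several to 1754 and none to 12083. Symbols were updated by gene ID through RefSeq (GRCh38.p14), with 19429 matched, and the probe set with the highest mean was kept for each of 18417 genes. For the probe sets' genome build, nothing was stated. Promoter windows came from RefSeq, which held 29 of the 43 genes.

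limma 3.58.1 in R 4.3.3 was fitted to all genes with Benjamini-Hochberg adjustment. It had 1 residual degree of freedom and 3.55 prior ones. On simulated arrays of 18417 genes it recovered 0% of 100 genes with a log2 line difference of 1 and 83% of 100 with a difference of 2, calling 12 unchanged genes. For OGE it recovered 0% at both sizes. Line and OGE differences were simulated in the same run with the same noise, sizes and numbers of genes. The 83% and 0% therefore do not show that limma is more sensitive to line than to OGE. A gene was named with its values if it reached the array median on at least 1 array or differed by at least 1, and 32 of the 43 did. Of the pathway lists, genes called by size or by limma were named, with CCND1, MYC, LEF1, NKD1, NKD2, SP5 and CTNNB1. The symbol rule reads no measured value, but the choice of this gene family and of the lists was made with earlier results of these data known. Alternatives were other size thresholds and floors, averaging a gene's probe sets, quantile or cyclic loess normalization, and limma with other moderation, terms or gene filters. Precision is limited by there being 1 array per group.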

Additional observations from a re-analysis of the deposited data

Results flagged for a closer look

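DKK1 had OGE differences of opposite sign in the lines, 0.03 in U2-OS and -1.59 in HOS, of which the second was called by size. Under quantile normalization the U2-OS difference was -0.075, and under cyclic loess -0.0387, the same sign as in HOS, so the opposite sign depends on the scaling. The U2-OS value is close to 0, from a level below the array median in both states. FZD3 had OGE differences of -1.0 in U2-OS and 0.22 in HOS. Between the lines FZD3 differed by 1.00 without OGE and by -0.22 with it. Each of these rests on 1 array per group, and the differences between the lines' responses were not tested.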

How the results depend on the processing

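No analysis of paired replicates was possible because each group had 1 array. The limma fit already matches arrays by line and by OGE state through its terms. By size threshold, the counts of the 43 genes moved as the threshold implies. At 1.5-fold, U2-OS without OGE had 5 higher and 6 lower, 1 was higher with OGE, and for OGE in U2-OS 2 were higher and 5 lower. At 3-fold, these were 0 higher and 1 lower, DKK1, without OGE and 0 lower for OGE in U2-OS. With a floor at the 75th percentile, 1 gene, LRP6, was higher without OGE, 0 were lower with OGE and 1, FZD6, was lower for OGE in U2-OS. Shares of all genes under these thresholds and this floor are not given here, so these counts have no background beside them. For the line difference, limma called DKK1, LRP5, LRP6 and WNT5A, 4 genes, under quantile normalization, cyclic loess, or robust moderation with a trend. It called 3 when restricted to genes whose mean reached the median, and 0 without OGE as a term; the cause was not tested. The number of all genes called for the line difference moved as well. Of 18417 genes limma called 354 in the main setting, 1763 after quantile normalization, 1326 after cyclic loess and 1309 with trend and robust moderation. It called 131 without OGE as a term, and 658 when restricted to genes whose mean reached the median. For OGE it called 0 of the 43 in every setting run, and over all genes 1 with trend and robust moderation and 264 after quantile normalization. Of 68 alternative counts over the 43 genes, 52 stayed within 1.5 times. Of the alternative differences for named genes, 581 kept their status, called or not called, 4 gained the call by size and 5 lost it. In 6 of them the sign turned, none of them called and none over 0.075 in size. Chosen after seeing the data, raising the U2-OS values of DKK1 to their array medians gave differences between the lines of -0.94 with OGE, under the threshold, and -2.55 without it.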

Other observations

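Among the antagonists outside the 43 genes, SOSTDC1, which binds LRP5 and LRP6 and also BMPs, stood at 2.02 and 3.54 in U2-OS with and without OGE, against 1.48 and 1.40 in HOS with and without OGE. Its U2-OS control value lay just under that array's median of 3.58, so its differences of 2.14 between the lines without OGE and -1.52 with OGE in U2-OS were not called. RSPO3, an R-spondin, likewise stood at 2.12 and 3.14 in U2-OS with and without OGE, against 1.57 and 2.17 in HOS with and without OGE.

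Of the WNT genes, 3 pairs are next to each other among the protein-coding genes of RefSeq: WNT10B and WNT1, WNT3 and WNT9B, and WNT6 and WNT10A. WNT3 and WNT9B differed between the lines by -0.49 and 0.38 with OGE and by -0.78 and -0.15 without it. WNT10B and WNT1 differed by 0.08 and -0.13 with OGE and by 0.46 and -0.19 without it. For OGE against control, WNT6 and WNT10A differed by 0.63 and 0.20 in U2-OS and by -0.02 and -0.07 in HOS.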
